A study of Rattus norvegicus with 64 samples.

Results

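Muscarinic, purinergic and adrenergic receptors carry the signals of the autonomic nerves and of released ATP to the bladder wall. The 9 receptor genes described here were Chrm2, Chrm3, P2rx1, P2rx4, P2rx7, P2ry2, P2ry6, Adrb3 and Adra1a. They were found by the RefSeq accession of each probe on a rat Agilent array, which matched 11 probes to the 9 genes, of 15715 named genes and 30367 gene probes in all. Chrm2 and P2rx1 had 2 probes each, and every gene is described by its probe with the highest mean over all arrays.

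RNA from reconstructed bladder walls of male Wistar rats, parted from the native bladder before RNA isolation, was hybridized to 64 1-color arrays, 1 rat per array, in 8 groups of 8. All rats underwent hemicystectomy, the removal of a part of the bladder, and the defect was closed with bladder acellular matrix (BAM), the bladder wall left after its cells are removed. The graft was BAM only or BAM seeded with adipose-derived stromal cells (BAM+ASCs), grown from the adipose tissue of male Wistar rats aged 10 weeks, and bladders were taken at 7, 30, 90 and 180 days of follow-up. Bladders of unoperated rats are not among the arrays, the age of the operated rats is not given in the sources used here, and how cleanly the native wall was removed from a sample was not measured.

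Acetylcholine from parasympathetic nerves contracts the detrusor, the smooth muscle of the bladder, through the M3 receptor encoded by Chrm3, while the M2 receptor encoded by Chrm2 is coupled to inhibitory G proteins and is the more abundant of the muscarinic subtypes there. ATP, released with acetylcholine, opens the P2X1 ion channel encoded by P2rx1 on the same muscle cells, and noradrenaline relaxes the detrusor through the β3 receptor encoded by Adrb3 and contracts the bladder neck through α1A receptors encoded by Adra1a. P2X4, P2X7 and P2Y6 receptors are found on macrophages, where they sense ATP and UDP, and P2Y2 is a receptor for ATP and UTP on epithelium and many other cells.

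Levels are log2 of the processed signal, set against the array itself so that 0 is the 75th percentile of its gene spots. Levels of different probes are not compared. The share of gene spots that cleared background was 73.3% to 95.6% on the arrays of 7 and 30 days, but 35.5% to 64.6% on those of 90 and 180 days. The median local background of an array was 42 to 52 at the earlier and 99 to 366 at the later follow-ups, highest in BAM at 90 days. No group shared its slide with another, and the effect of a slide cannot be told apart from that of its group. The slides of 7 and 30 days were scanned together, as were those of 90 and 180 days, so the comparison of 90 with 30 days cannot be told apart from the scan. BAM replicate 8 at 90 days stood apart with the lowest share of spots above background. Smooth muscle markers were present in every group, with 10 of 10 well above background on all arrays of each group.

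Of the 9 receptor genes, P2ry2, P2ry6, Chrm3 and Adrb3 were well above background on all 64 arrays, P2rx1 on 63, P2rx4 on 61, Chrm2 on 48, Adra1a on 33 and P2rx7 on 14. None of the 11 probes was saturated on any array. The second probe of P2rx1 was well above background on 64 arrays, and the second probe of Chrm2 on 9.

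RefSeq promoters of assembly GRCr8, from 250 bases before to 50 after the start of the gene, were listed for 6 of the 9 genes, namely Chrm2, Chrm3, P2rx1, P2rx4, P2rx7 and P2ry2. Those of Chrm2, Chrm3, P2rx1 and P2ry2 are shown 5′ to 3′ on the strand of the gene. In both grafts Chrm2, Chrm3 and P2rx1 had higher means at 90 than at 30 days, and P2ry2 lower. The change of scan falls in this step. Chrm2 lies at chr4:65982200-65982499 (+), Chrm3 at chr17:64696677-64696976 (+), P2rx1 at chr10:58116857-58117156 (+) and P2ry2 at chr1:164779439-164779738 (-), and capitals mark GC boxes, the letters GGGCGG read on either strand.
Chrm2: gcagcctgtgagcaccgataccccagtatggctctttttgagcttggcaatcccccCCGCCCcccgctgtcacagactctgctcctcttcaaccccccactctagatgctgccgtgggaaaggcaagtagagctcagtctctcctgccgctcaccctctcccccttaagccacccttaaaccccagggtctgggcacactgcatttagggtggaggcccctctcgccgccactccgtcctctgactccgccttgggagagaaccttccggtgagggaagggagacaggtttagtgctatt
Chrm3: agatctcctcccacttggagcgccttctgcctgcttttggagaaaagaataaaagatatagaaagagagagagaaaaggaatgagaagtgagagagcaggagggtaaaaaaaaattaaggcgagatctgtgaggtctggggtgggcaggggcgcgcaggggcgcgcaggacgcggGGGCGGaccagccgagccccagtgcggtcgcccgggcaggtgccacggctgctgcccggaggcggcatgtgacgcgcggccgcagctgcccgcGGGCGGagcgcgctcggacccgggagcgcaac
P2rx1: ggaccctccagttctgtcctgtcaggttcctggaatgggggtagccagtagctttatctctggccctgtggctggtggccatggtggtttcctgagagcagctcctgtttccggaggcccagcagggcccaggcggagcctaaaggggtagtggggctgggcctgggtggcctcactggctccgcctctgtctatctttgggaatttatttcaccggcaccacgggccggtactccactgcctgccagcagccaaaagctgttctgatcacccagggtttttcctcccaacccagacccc
P2ry2: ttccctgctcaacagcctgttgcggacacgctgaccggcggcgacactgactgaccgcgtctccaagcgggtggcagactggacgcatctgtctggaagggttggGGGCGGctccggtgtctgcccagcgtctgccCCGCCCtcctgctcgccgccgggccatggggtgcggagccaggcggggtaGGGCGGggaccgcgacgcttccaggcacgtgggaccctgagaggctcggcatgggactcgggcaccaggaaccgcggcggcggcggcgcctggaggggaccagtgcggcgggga
The GC box was found 3 times for P2ry2, 2 times for Chrm3 and for P2rx7, 1 time for Chrm2 and 0 times for P2rx1 and P2rx4, and it is present in 33.1% of all 33469 promoters of this length. The promoters printed had a GC content of 60.3% for Chrm2, 64% for Chrm3, 61% for P2rx1 and 73% for P2ry2. The CArG box, the sequence bound by serum response factor, was searched on both strands and matched in 0 of the 6 windows, against 1.64% of all promoters. The same was true of TATAA, which is in 26.2% of all promoters, and of the cyclic AMP response element TGACGTCA, which is in 1.83%. A match is a description of the letters in this window only.

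Seeding BAM with ASCs changed none of the 9 receptor genes at any follow-up by the thresholds used, which were 0.01 for the adjusted p and 1.5 for the fold change. With limma and Benjamini-Hochberg adjustment over all 30367 probes, 0 of 9 were called at 7 days, where 7.73% of all probes were called. The counts were again 0 of 9 at 30 days, beside 1.67% of all probes, 0 of 9 at 90 days, beside 12.5%, and 0 of 9 at 180 days, beside 2.44%. At an unadjusted p below 0.05, 4 of the 9 genes passed at 7 days, and 2, 2 and 0 at the later follow-ups. Of all probes 29.2%, 25.8%, 47.9% and 14.1% passed this level in order of follow-up. The two-way analysis of variance without moderation also called 0 of 9 at each follow-up. The median log2 difference of the 9 genes, BAM+ASCs minus BAM, was 0.06, -0.13, -0.18 and -0.04 in order of follow-up, against medians over all probes of -0.16, 0.11, -0.27 and 0.06. Quantile normalization brought the medians over all probes to between -0.03 and 0.02.

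**Figure D1:**
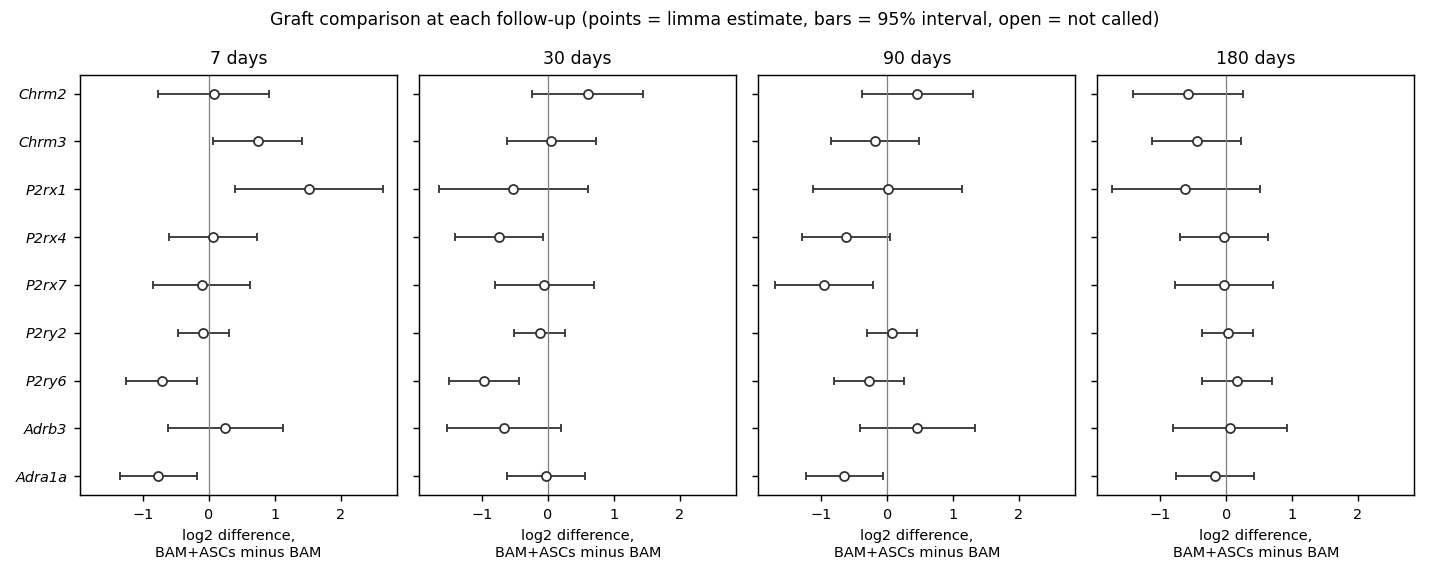
Log2 difference of each receptor gene between BAM+ASCs and BAM (x axis) at 7, 30, 90 and 180 days, with points for the limma estimate over 64 arrays and bars for its 95% interval. All points are open, since 0 of 9 genes were called at each follow-up, and the intervals of P2ry6 and Adra1a at 7 days, P2ry6 and P2rx4 at 30 days and P2rx7 and Adra1a at 90 days lie below 0, while those of P2rx1 and Chrm3 at 7 days lie above 0.

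Some receptor genes were called between successive follow-ups. The step from 30 to 90 days coincides with the change of scan and cannot be told apart from it. From 7 to 30 days in BAM, 4 of 9 genes rose and 0 fell, where 4.44% of all probes rose. From 30 to 90 days in BAM, 4 of 9 rose and 3 of 9 fell, where 35.2% of all probes rose and 9.49% fell. Of those that rose, Chrm2 was well above background on 3 of 8 BAM arrays at 90 days and Adra1a on 1 of 8. In BAM+ASCs 1 of 9 rose from 7 to 30 days, where 6.67% of all probes rose, and from 30 to 90 days 4 of 9 rose and 2 of 9 fell, where 17.8% rose and 10.3% fell. From 90 to 180 days 0 of 9 were called in BAM, where 9.39% of all probes were, and 0 of 9 in BAM+ASCs, where 4.14% were. At an unadjusted p below 0.05 the last step had 2 of 9 genes in BAM and 1 of 9 in BAM+ASCs, where 34.1% and 26.1% of all probes passed. The two-way analysis of variance called 0 of 9 in both. The median log2 difference of the 9 genes over the 3 steps was 0.83, 0.75 and -0.18 in BAM, against -0.06, 0.30 and -0.24 over all probes, and 0.52, 0.52 and -0.16 in BAM+ASCs, against 0.27, 0.11 and 0.21. Successive steps share a group, since the arrays of 30 days stand in both the first and the second step and those of 90 days in the second and the last.

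**Figure D2:**
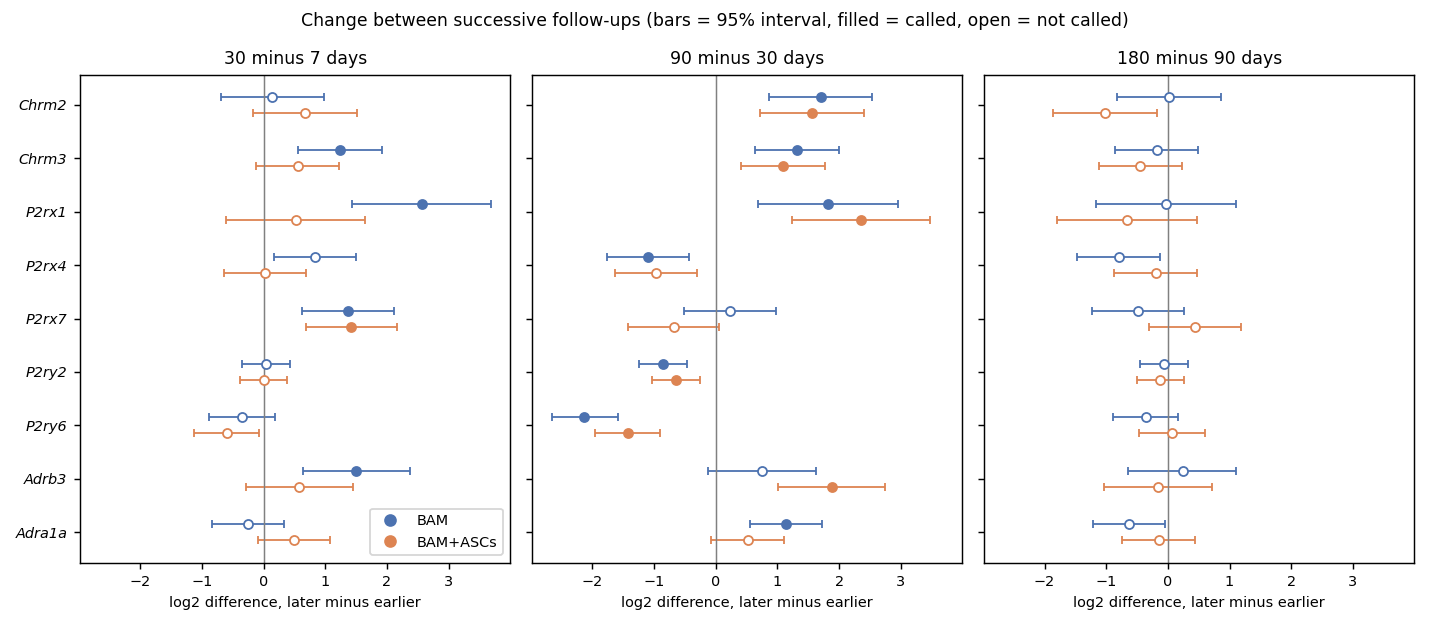
Log2 difference between successive follow-ups (x axis, later minus earlier) for each receptor gene in BAM and in BAM+ASCs, with points for the limma estimate and bars for its 95% interval. Filled points passed both thresholds, and there are 4 in BAM and 1 in BAM+ASCs for 30 minus 7 days, 7 and 6 for 90 minus 30 days, and 0 and 0 for 180 minus 90 days.

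Whether the grafts differed in their course was tested as an interaction. The F test of graft by day called 0 of 9 receptor genes, where 18.5% of all probes were called. At an unadjusted p below 0.05 it had 2 of 9, where 53.7% of all probes passed. The two-way analysis of variance called 0 of 9. The change in the graft difference between successive follow-ups, a contrast added after the data were seen, was called for 0 of 9 genes from 7 to 30 days (0.985% of all probes), 0 of 9 from 30 to 90 days (9.99%) and 0 of 9 from 90 to 180 days (9.79%). At an unadjusted p below 0.05 this was 1, 0 and 0 of the 9 genes, where 26.7%, 44.9% and 38.3% of all probes passed. The two-way analysis of variance again called 0 of 9 in each. A step that passed the thresholds in one graft and not in the other is therefore not shown to differ between them.

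Among the muscarinic receptors, Chrm3 rose in both grafts. Its level in BAM ran from -4.16 to -1.26 (median -2.78) at 7 days, from -1.90 to -1.04 (median -1.49) at 30 days, from -1.41 to 1.70 (median -0.56) at 90 days and from -1.13 to 0.38 (median -0.25) at 180 days. With ASCs the level ran from -2.61 to -1.15 (median -1.87), -1.99 to -0.75 (median -1.41), -0.79 to 0.31 (median -0.60) and -1.65 to 0.56 (median -0.99). At 7 days 8 of 8 BAM+ASCs arrays were above the median of BAM, the ranges overlapped, and 1 of them was above every BAM array.

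In BAM, Chrm3 rose by a log2 difference of 1.23 ± 0.34 (SE, n = 8 and 8 arrays) from 7 to 30 days (limma adjusted p = 0.00521), a fold change of 2.35. It rose again by 1.32 ± 0.34 from 30 to 90 days (limma adjusted p = 0.000592), and in BAM+ASCs by 1.09 ± 0.34 over the same step (limma adjusted p = 0.00626). The rise from 7 to 30 days in BAM+ASCs was 0.55 ± 0.34 and did not pass (limma adjusted p = 0.209). The early rise in BAM was lost without any 1 of BAM replicates 1, 5, 6 or 7 at 7 days or BAM replicates 2, 5, 6 or 8 at 30 days, with log2 differences of 1.02 to 1.21, and the rise from 30 to 90 days in BAM+ASCs without any 1 of BAM+ASCs replicates 7 and 8 at 30 days or 3, 5 and 7 at 90 days, with 1.0 to 1.07. The early rise in BAM also did not pass with normexp correction, at 0.82, or where only the compared groups were fitted, and the later rise in BAM+ASCs did not pass after quantile normalization, at 1.17. At 7 days the graft difference was 0.74 (95% interval 0.06 to 1.41, limma adjusted p = 0.129), and at the other days it lay between -0.45 and 0.05 with intervals that hold 0.

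Chrm2 stayed low until 30 days and was higher at 90 days in both grafts. In BAM it ran from -6.02 to -2.57 (median -4.93) at 7 days, from -5.08 to -4.19 (median -4.69) at 30 days, from -4.10 to -0.20 (median -3.29) at 90 days and from -3.59 to -1.68 (median -3.05) at 180 days. In BAM+ASCs it ran from -5.47 to -4.07 (median -4.70), -4.94 to -3.20 (median -4.11), -3.47 to -1.40 (median -2.53) and -5.47 to -1.61 (median -3.81). In BAM the values of 90 days lay above those of 30 days, but on 5 of the 8 arrays of 90 days, the lowest at -4.10 among them, the probe was not well above background.

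The step from 30 to 90 days was 1.70 ± 0.42 in BAM (limma adjusted p = 0.000384) and 1.56 ± 0.42 in BAM+ASCs (limma adjusted p = 0.00166). With normexp correction the step in BAM was 1.09 and still called. Chrm2 was well above background on 8 of 8 BAM arrays at 30 days, on 3 of 8 at 90 days and on 5 of 8 at 180 days, and on 8, 8 and 2 of 8 BAM+ASCs arrays at these days. In BAM+ASCs its level from 90 to 180 days differed by -1.02 (95% interval -1.86 to -0.18, limma adjusted p = 0.104), and 6 of 8 arrays of 180 days lay below every array of 90 days. Its second probe, well above background on 9 of 64 arrays, disagreed in places: from 7 to 30 days in BAM+ASCs it rose by 1.61 ± 0.42 (limma adjusted p = 0.00346), where the brighter probe had 0.67 ± 0.42 and was not called. The second probe rose from 30 to 90 days by 2.50 ± 0.42 in BAM (limma adjusted p = 7.34e-07) and had 1.07 ± 0.42 in BAM+ASCs and was not called (limma adjusted p = 0.0294). The graft difference of the second probe was of the opposite sign at 7, 90 and 180 days, -0.87 against 0.07, -0.63 against 0.46 and 0.10 against -0.58, and none of these was called.

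P2rx1, the ATP-gated channel of the detrusor, had group means from -3.70 to 0.68. In BAM it ran from -7.63 to -1.33 (median -3.32) at 7 days, from -1.71 to -0.53 (median -1.11) at 30 days, from -0.66 to 3.59 (median 0.19) at 90 days and from -0.28 to 1.20 (median 0.69) at 180 days. Its range in BAM+ASCs went from -4.64 to -0.78 (median -1.87), -4.13 to -0.55 (median -1.39), -0.83 to 1.69 (median 0.70) and -1.41 to 1.81 (median -0.02). The lowest array of all, BAM replicate 7 at 7 days, was the only one on which P2rx1 was not well above background.

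In BAM, P2rx1 rose by 2.56 ± 0.56 from 7 to 30 days (limma adjusted p = 0.000477), a fold change of 5.89 with a 95% interval of 2.70 to 12.9, and by 1.82 ± 0.56 from 30 to 90 days (limma adjusted p = 0.00415). In BAM+ASCs the first step was 0.52 ± 0.56 (limma adjusted p = 0.493) and the second 2.36 ± 0.56 (limma adjusted p = 0.000461), a fold change of 5.12. The graft difference at 7 days was 1.52 (95% interval 0.39 to 2.64), higher with ASCs than the BAM median in 7 of 8 arrays, and it was 0.80 with normexp correction and 0.95 without BAM replicate 7 at 7 days. Its limma adjusted p was 0.0519 and ranged from 0.0131 to 0.255 over the alternatives and left-out arrays. It was -0.53 (interval -1.65 to 0.60) at 30 days, and the change between these days was -2.04 ± 0.80 (limma adjusted p = 0.0972). At 90 and 180 days the graft difference was 0.01 (interval -1.12 to 1.14) and -0.62 (interval -1.74 to 0.51).

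With normexp correction the rise from 7 to 30 days in BAM was 1.59 and still called. The second P2rx1 probe had the same 3 steps called, with 1.98 ± 0.47 and 1.59 ± 0.47 in BAM and 1.69 ± 0.47 from 30 to 90 days in BAM+ASCs, and a graft difference of 1.11 ± 0.47 at 7 days. Its graft difference at 90 days was -0.20 against 0.01, and neither was called. The rise from 30 to 90 days in BAM was lost without BAM replicate 5 at 90 days, the highest array, at 1.40, and without BAM replicate 8 at 90 days, at 1.69. The array with the lowest P2rx1 level at 30 days was BAM+ASCs replicate 7, which also held the lowest level of Chrm2, Chrm3, P2rx7, Adrb3 and Adra1a in its group, and without it the graft difference of P2rx1 at 30 days was -0.18.

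P2rx4 encodes a slowly desensitizing ATP-gated channel. It was highest in BAM at 30 days, from -1.04 to -0.33 (median -0.54), and ran from -2.72 to -0.93 (median -1.33) at 7 days, from -3.82 to 0.62 (median -1.72) at 90 days and from -3.09 to -1.88 (median -2.53) at 180 days. With ASCs it was from -1.98 to -0.87 (median -1.44), -2.27 to -0.65 (median -1.38), -3.79 to -1.38 (median -2.36) and -3.35 to -1.71 (median -2.41). The highest value at 90 days, 0.62, was that of BAM replicate 8, and the next was -0.86. The lowest values at 90 days, -3.82 on BAM replicate 5 and -3.79 on BAM+ASCs replicate 3, were not well above background.

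P2rx4 fell from 30 to 90 days by 1.1 ± 0.33 on the log2 scale in BAM (limma adjusted p = 0.00369), and in BAM+ASCs the difference was -0.97 ± 0.33 (limma adjusted p = 0.0134, not called). Without BAM replicate 8 at 90 days the change in BAM was -1.43, and it was lost without BAM replicate 1 at 90 days, at -0.99, or BAM replicate 5, at -0.80. It was also lost with normexp correction, at -0.81, and where only the compared groups were fitted. In BAM+ASCs it was called without any 1 of BAM+ASCs replicates 2 and 8 at 30 days or 1 and 2 at 90 days, with -1.06 to -1.11. At 30 days 8 of 8 BAM+ASCs arrays were below the BAM median, with a graft difference of -0.75 (95% interval -1.42 to -0.08, limma adjusted p = 0.144). From 90 to 180 days in BAM the difference was -0.80 (interval -1.47 to -0.13, limma adjusted p = 0.0785), and it was called without BAM replicate 5 at 90 days, at -1.09.

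P2rx7 encodes the ATP receptor that drives interleukin release from macrophages. It was at the edge of detection, well above background on 2 of 8 BAM and 0 of 8 BAM+ASCs arrays at 7 days, on 6 of 8 arrays of both grafts at 30 days, and on 0 of 32 arrays at 90 and 180 days. Its level at 30 days ran from -6.33 to -4.71 (median -5.06) in BAM and from -6.97 to -2.58 (median -5.32) in BAM+ASCs. From 7 to 30 days it rose in BAM by 1.37 ± 0.37 (limma adjusted p = 0.00489). In BAM+ASCs no array of 7 days was well above background. The fitted rise there was 1.42 ± 0.37 (limma adjusted p = 0.00366), a fold change of 2.68 with an interval of 1.6 to 4.48. With each array of 7 days raised to its lowest level well above background, where that was higher, the fold change was 2.64. Neither fold change is a lower limit, as the interval reaches below both. These rises were lost with normexp background correction, at 0.06 in BAM and 0.41 in BAM+ASCs, and with quantile normalization, at 0.97 and 0.56. Neither rise was called with dim probes left out or with only the compared groups fitted. In BAM+ASCs the rise was also lost with the deposited table of processed intensities, and without replicate 1 at 30 days, at 1.03. In BAM the rise was also lost without any 1 of replicates 2, 5 and 6 at 7 days or 1, 2 and 4 at 30 days, at 1.20 to 1.32. From 30 to 90 days in BAM the difference was 0.23 ± 0.37 and not called, and after quantile normalization it was -0.93 and called. At 90 days, where neither group was well above background on any array, the graft difference was -0.96 (limma adjusted p = 0.0388) and, without BAM replicate 8, -0.64.

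P2ry2, the receptor for ATP and UTP, moved little and fell late. In BAM it ran from 0.03 to 0.59 (median 0.34) at 7 days, from -0.16 to 0.91 (median 0.30) at 30 days, from -1.02 to 0.18 (median -0.67) at 90 days and from -0.92 to -0.00 (median -0.66) at 180 days. In BAM+ASCs it ran from -0.12 to 0.58 (median 0.31), -0.13 to 0.60 (median 0.17), -0.90 to 0.38 (median -0.52) and -1.50 to 0.29 (median -0.41). From 30 to 90 days it fell by 0.85 ± 0.19 in BAM (limma adjusted p = 0.000114) and by 0.65 ± 0.19 in BAM+ASCs (limma adjusted p = 0.00434). The fall in BAM+ASCs was lost without any 1 of BAM+ASCs replicates 2 and 7 at 30 days or 5 and 7 at 90 days, at -0.61 to -0.58, and with normexp correction, at -0.54. Its graft differences had the smallest SE of the 9 genes, 0.19, and lay between -0.13 and 0.07 over the 4 follow-ups, with 95% intervals that reached no further than -0.52 and 0.46.

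P2ry6 encodes the UDP receptor of macrophages and microglia, and fell in both grafts. In BAM it ran from 1.84 to 3.28 (median 2.50) at 7 days, from 1.46 to 2.41 (median 2.25) at 30 days, from -1.26 to 1.01 (median 0.07) at 90 days and from -1.05 to 0.33 (median -0.31) at 180 days. With ASCs the level ran from 1.41 to 1.99 (median 1.88), 0.60 to 1.70 (median 1.20), -2.0 to 0.44 (median -0.18) and -1.17 to 0.94 (median -0.22). In both grafts every array of 90 days was below every array of 30 days.

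P2ry6 fell from 30 to 90 days by 2.13 ± 0.27 in BAM (limma adjusted p = 7.65e-10), a fold change of 4.37 with a 95% interval of 3.02 to 6.31, and by 1.43 ± 0.27 in BAM+ASCs (limma adjusted p = 1.27e-05). It was lower with ASCs than the BAM median in 8 of 8 arrays at 7 days, with a difference of -0.72 (95% interval -1.26 to -0.19, limma adjusted p = 0.0490), and in 8 of 8 arrays at 30 days, with -0.97 (interval -1.5 to -0.44, limma adjusted p = 0.0166). Neither passed the threshold of 0.01. At 30 days the adjusted p ranged from 0.00754 to 0.0460 over the alternatives and left-out arrays. The difference was called where only the 2 groups were fitted, at -0.97, and without BAM replicate 7 at 30 days, at -1.07. At 90 and 180 days the differences were -0.28 (interval -0.81 to 0.26) and 0.16 (interval -0.37 to 0.69).

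Adrb3, the receptor through which noradrenaline relaxes the detrusor, rose in both grafts. In BAM it ran from -5.43 to -1.80 (median -2.89) at 7 days, from -2.68 to -0.89 (median -1.74) at 30 days, from -2.86 to 0.27 (median -0.93) at 90 days and from -1.52 to -0.16 (median -0.69) at 180 days. Its levels in BAM+ASCs were -3.90 to -2.29 (median -2.82), -5.74 to -0.91 (median -2.15), -0.97 to 0.24 (median -0.66) and -1.47 to 0.49 (median -0.65). The lowest array of all was again BAM+ASCs replicate 7 at 30 days, and the ranges of successive days overlapped.

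In BAM, Adrb3 rose by 1.5 ± 0.44 from 7 to 30 days (limma adjusted p = 0.00877), and the next step, 0.75 ± 0.44, did not pass (limma adjusted p = 0.129). In BAM+ASCs the first step was 0.58 ± 0.44 (limma adjusted p = 0.308) and the second a rise of 1.88 ± 0.44 (limma adjusted p = 0.000325), a fold change of 3.68, which was 1.40 and still called without BAM+ASCs replicate 7 at 30 days, but was not called where only the compared groups were fitted. The early rise in BAM was lost without any 1 of replicates 1, 2, 4 and 5 at 7 days or 1, 2, 3, 4, 7 and 8 at 30 days, at 1.19 to 1.54, and with normexp correction, at 0.97, with the compared groups only, and with the replicate number as a block. The graft differences ranged from -0.67 at 30 days (95% interval -1.54 to 0.20) to 0.46 at 90 days (interval -0.41 to 1.33). The adipocyte markers, given because Adrb3 is also a receptor of fat cells, were read beside it. Of 7 measured markers 0 rose and 0 fell from 7 to 30 days in BAM, and from 30 to 90 days in BAM+ASCs 0 rose and 2 fell, where 10.3% of all probes fell. The part of fat cells in the Adrb3 level was not tested.

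Adra1a, the α1A receptor, was well above background on 8 of 8 arrays of both grafts at 7 days and on 8 BAM and 6 BAM+ASCs arrays at 30 days, but only on 1 BAM array at 90 days, 2 BAM arrays at 180 days and no BAM+ASCs array at these days. In BAM it ran from -5.38 to -4.09 (median -4.79), -5.44 to -4.45 (median -5.16), -5.10 to -1.58 (median -4.28) and -5.76 to -4.0 (median -4.40) over the 4 follow-ups. In BAM+ASCs it ran from -6.18 to -5.17 (median -5.65), -5.83 to -3.36 (median -5.24), -4.97 to -4.15 (median -4.53) and -5.44 to -4.15 (median -4.51). The rise of 1.14 ± 0.29 from 30 to 90 days in BAM (limma adjusted p = 0.000634) therefore ends in a group with 1 of 8 arrays above background, and it was not called after quantile normalization, at 0.73, or where only the compared groups were fitted.

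At 7 days, where every array measured it, Adra1a differed by -0.77 with ASCs (95% interval -1.36 to -0.18, limma adjusted p = 0.0600), and 8 of 8 BAM+ASCs arrays were below the BAM median. Fitted with these 2 groups only, this difference was called at a limma adjusted p of 0.00944, and over all alternatives and left-out arrays the adjusted p reached 0.727. At 90 and 180 days, where no BAM+ASCs array and only 1 and 2 of 8 BAM arrays were well above background, the graft differences were -0.65 and -0.17 (limma adjusted p = 0.0752 and 0.967), and neither is a measured difference in level. Without single arrays the difference at 90 days ranged from -0.82 to -0.32.

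**Figure D3:**
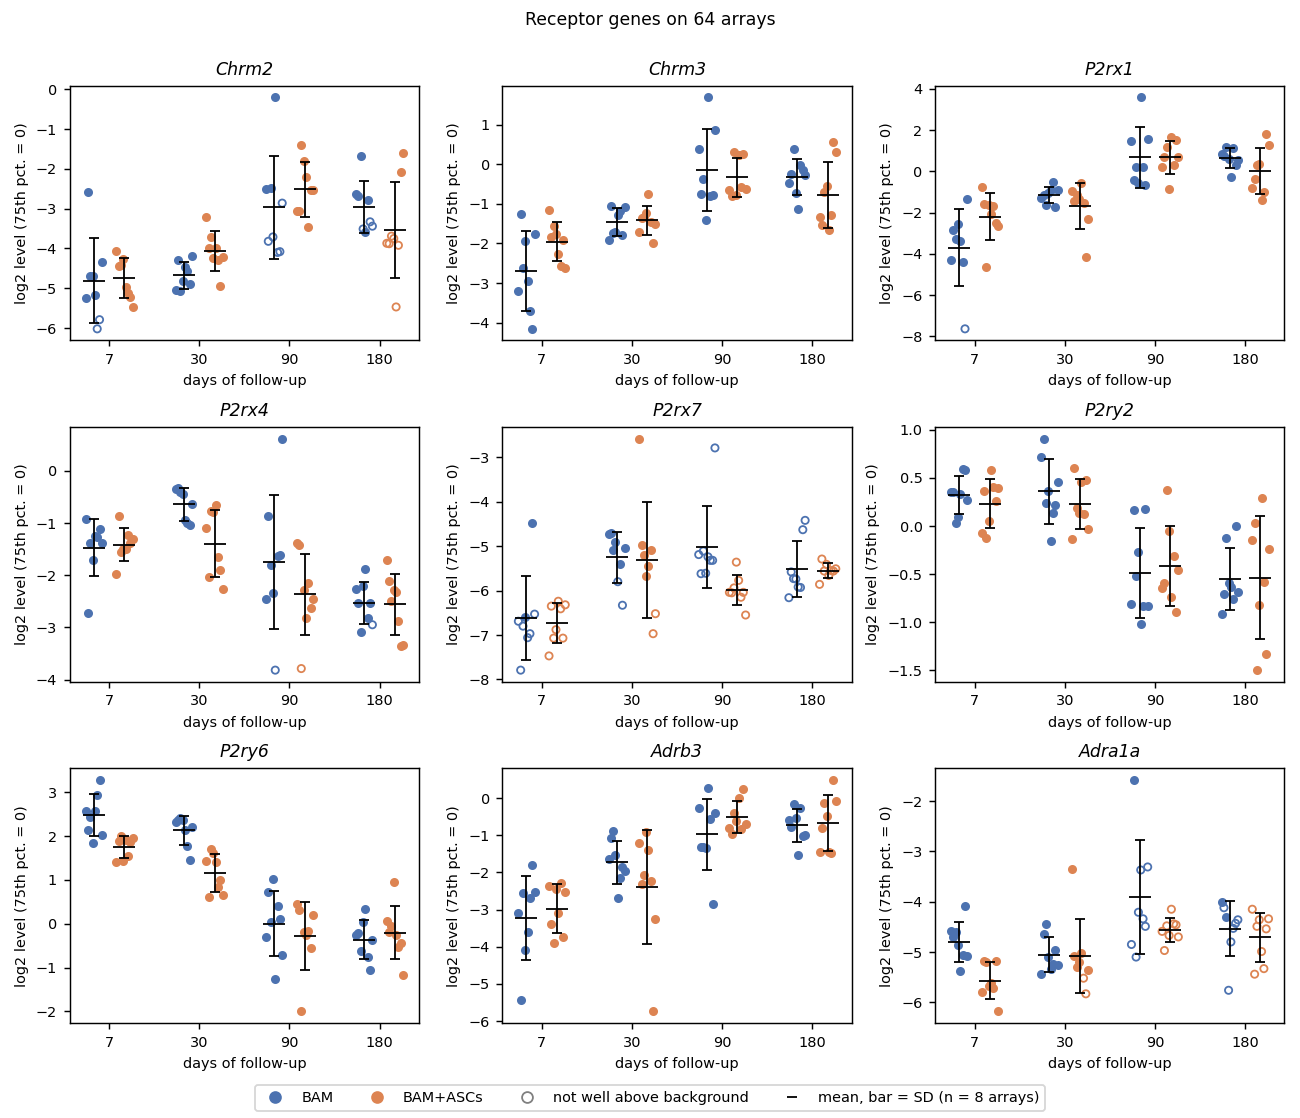
Level of each receptor gene on each of the 64 arrays (y axis, log2 relative to the 75th percentile of the array, scales differ between panels) by days of follow-up, for BAM and BAM+ASCs; horizontal marks are means and bars SD of 8 arrays. Open points are arrays on which the probe was not well above background; P2ry6 drops from 1.46 or higher in BAM at 30 days to 1.01 or lower at 90 days, while P2rx1 moves from a median of -3.32 at 7 days to 0.69 at 180 days.

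Ordered by their mean, the 8 groups of a gene formed few separate steps. Neighbours in the order differed by more than the larger of both SDs for 1 of 7 pairs of Chrm2, P2rx1, P2rx4, P2rx7 and P2ry2 each, for 3 of 7 of P2ry6, and for 0 of 7 of Chrm3, Adrb3 and Adra1a. P2rx1, Chrm3, Chrm2, Adrb3 and Adra1a had all 4 groups of 90 and 180 days above all 4 of 7 and 30 days, and P2rx4, P2ry2 and P2ry6 had them in the opposite order, an order that follows the scan. At 90 and 180 days Adra1a was well above background on only 1 and 2 of 8 BAM arrays and on no BAM+ASCs array. Chrm2 was so on 3 and 5 of 8 BAM arrays and on 8 and 2 of 8 BAM+ASCs arrays. For P2rx1 the separating step lay between BAM+ASCs at 180 days (0.02 ± 1.13, SD, n = 8) and BAM at 30 days (-1.15 ± 0.39). For Chrm2 the step lay between BAM+ASCs at 30 days (-4.07 ± 0.50) and BAM at 30 days (-4.67 ± 0.34). For P2rx7 it lay between BAM+ASCs at 180 days (-5.55 ± 0.17) and at 90 days (-5.99 ± 0.34), both not well above background. For P2ry2 it lay between BAM+ASCs at 30 days (0.23 ± 0.26) and at 90 days (-0.42 ± 0.42). For P2ry6 the separated neighbours were BAM at 30 days (2.13 ± 0.34), BAM+ASCs at 7 days (1.75 ± 0.24), BAM+ASCs at 30 days (1.15 ± 0.44) and BAM at 90 days (0.00 ± 0.75). P2rx4 had its separated step at the top, between BAM at 30 days (-0.64 ± 0.31) and BAM+ASCs at 30 days (-1.39 ± 0.65).

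Markers of smooth muscle and of other cell types also changed over these steps. In bulk tissue, fewer cells of a type and less RNA per cell cannot be told apart. The summed level of the 10 smooth muscle markers, log2 of their added signals, ran in BAM from 4.32 to 7.24 at 7 days, from 6.73 to 7.37 at 30 days, from 6.78 to 8.56 at 90 days and from 7.40 to 8.52 at 180 days, and in BAM+ASCs from 5.72 to 6.98, 6.47 to 7.20, 7.77 to 8.62 and 7.09 to 8.44. Of these markers 4 of 10 rose in BAM from 7 to 30 days and 5 of 10 from 30 to 90 days, and 1 of 10 and 9 of 10 in BAM+ASCs. Over all probes 4.44% and 35.2% rose in BAM over these steps, and 6.67% and 17.8% in BAM+ASCs. Between grafts 0 of 10 were called at 7, 30 and 180 days, and 3 of 10 were higher with ASCs at 90 days. At 90 days 12.5% of all probes were called in either direction, and 1178 of 30367 were higher with ASCs.

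Across the 64 arrays P2rx1 had r = 0.89 with the summed smooth muscle markers, Chrm3 0.86 and Chrm2 0.78. With the group means removed these were 0.80, 0.77 and 0.64, and within each of the 8 groups the sign was positive for all of these genes, with r from 0.49 to 0.96 for P2rx1, from 0.05 to 0.94 for Chrm3 and from 0.30 to 0.94 for Chrm2. Adrb3 had r = 0.66 over all arrays but 0.12 with the group means removed, and from -0.57 to 0.89 within groups. With the summed adipocyte markers Adrb3 had -0.48, and 0.24 with the group means removed. With the summed neutrophil markers it had -0.78 and -0.43. These are descriptions over arrays that share their groups and slides. The 6 skeletal muscle markers, among them the muscle actin Acta1, had r = 0.80 with Chrm2 and 0.78 with Chrm3, and 0.81 and 0.80 with the group means removed. Of these markers 4 of 6 were well above background on all 8 arrays of each group but BAM at 90 days, where 2 were, and Myh4, a myosin that defines skeletal muscle, was so on no array in 6 of the 8 groups. From 30 to 90 days in BAM 4 of 6 rose, with a median log2 difference of 1.38, and in BAM+ASCs 1 of 6 rose, with a median of 0.51. Over all probes 35.2% and 17.8% rose in this step. From 7 to 30 days 1 of 6 rose in each graft, where 4.44% of all probes rose in BAM and 6.67% in BAM+ASCs. Their summed level ran from -0.09 to 1.31 over the arrays of 7 and 30 days, from 0.42 to 4.32 in BAM at 90 days and from 0.99 to 1.77 in BAM+ASCs at 90 days. The part of either muscle's content in the receptor levels was not tested.

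A single array stood out in this respect. BAM replicate 5 at 90 days had the highest level of its group for Chrm2 (-0.20), Chrm3 (1.70), P2rx1 (3.59) and Adrb3 (0.27). The array had the lowest level of its group for P2rx4 (-3.82, not well above background), P2ry2 (-1.02) and P2ry6 (-1.26). Its summed skeletal muscle markers were at 4.32, against 2.46 or less on the other arrays of the group, while its smooth muscle sum of 7.73 was below the 8.56 of replicate 8. Without it the step from 30 to 90 days in BAM was 1.30 for Chrm2, 1.06 for Chrm3 and -1.95 for P2ry6, all still called, while P2rx1, at 1.40, and P2rx4, at -0.80, were no longer called.

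The 8 macrophage markers moved the other way. Their summed level ran in BAM from 5.13 to 6.26 at 7 days, 5.32 to 6.12 at 30 days, 2.74 to 5.37 at 90 days and 2.99 to 4.58 at 180 days, and in BAM+ASCs from 5.19 to 5.74, 4.32 to 5.68, 1.91 to 4.68 and 3.18 to 5.01. Of them 6 of 8 fell from 30 to 90 days in BAM and 3 of 8 in BAM+ASCs, where 9.49% and 10.3% of all probes fell. Between grafts 0 of 8 were called at any follow-up, with medians of -0.30 at 7 days and -0.75 at 30 days. P2ry6 had r = 0.95 with their sum over the 64 arrays and 0.89 with the group means removed (0.39 to 0.99 within groups), and P2rx4 had 0.80 and 0.68 (0.37 to 0.97 within groups). P2ry2 had 0.61 over all arrays and 0.05 with the group means removed, and P2rx7 -0.15 and 0.09. The part of macrophage content in these levels was not tested.

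**Figure D4:**
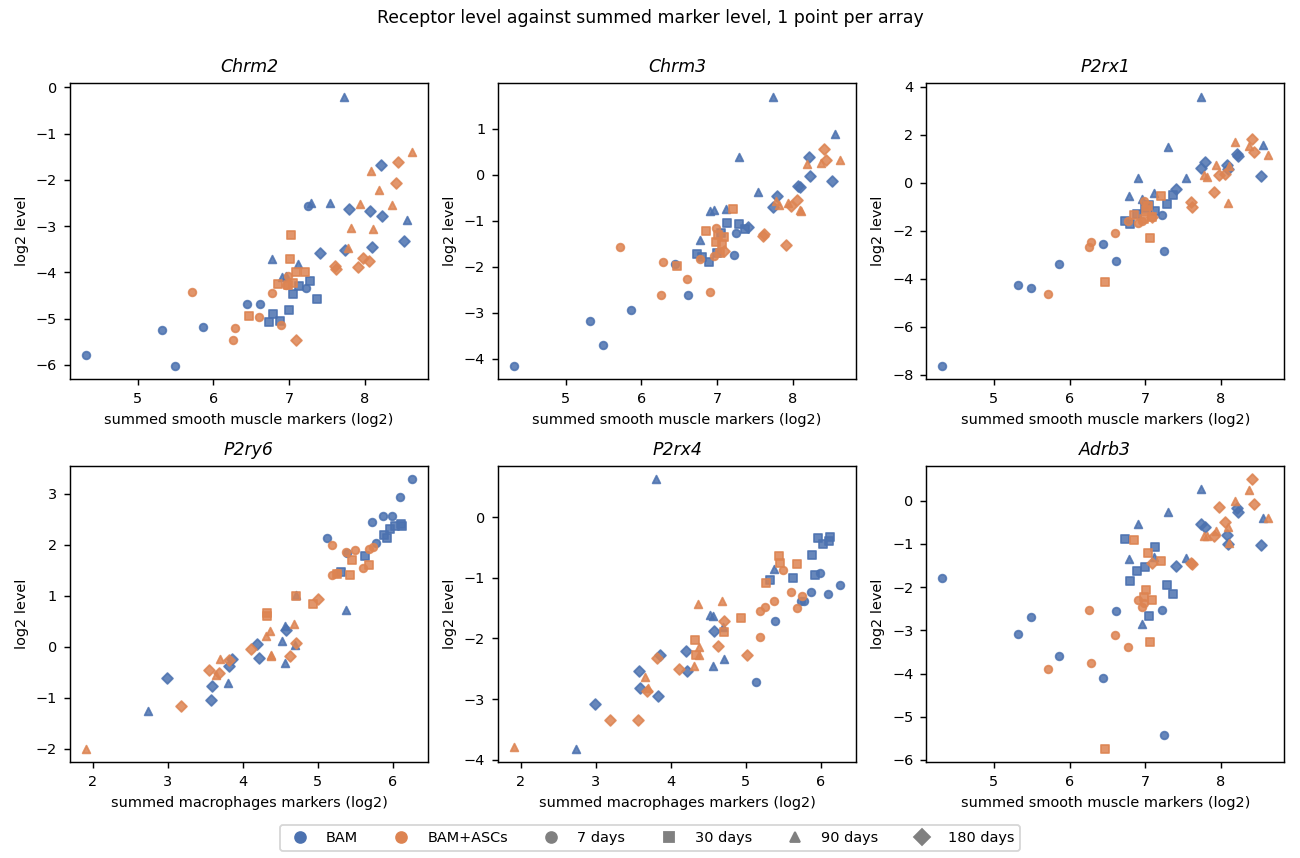
Level of 6 receptor genes (y axis, log2) against the summed level of smooth muscle or macrophage markers (x axis, log2 of the added signals), 1 point per array, colored by graft and shaped by day. Chrm2, Chrm3 and P2rx1 rise along the smooth muscle sum (r = 0.78, 0.86 and 0.89 over 64 arrays), P2ry6 and P2rx4 along the macrophage sum (r = 0.95 and 0.80), and Adrb3 has r = 0.66 with the smooth muscle sum (0.12 with the group means removed).

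Markers of other cell types were also called in these steps. From 7 to 30 days in BAM 5 of 8 urothelium markers rose, with a median log2 difference of 1.92, 4 of 5 neutrophil markers fell, with -4.14, and 4 of 6 endothelium markers fell, with -0.97. Over all probes 4.44% rose and 1278 of 30367 fell. In BAM+ASCs over this step 1 of 8, 2 of 5 and 1 of 6 did so, where 6.67% of all probes rose and 424 of 30367 fell. From 30 to 90 days 35.2% of all probes rose and 9.49% fell in BAM, and 17.8% and 10.3% in BAM+ASCs. Over this step 2 of 7 nerve and Schwann cell markers rose in BAM and 4 of 7 in BAM+ASCs. Of 5 neutrophil markers 1 rose in BAM and 3 fell in BAM+ASCs, and 2 of 6 T cell markers fell in both. Of 6 fibroblast markers 3 fell in BAM and 1 rose in BAM+ASCs. The part of these cell types in the receptor levels was not tested.

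Between grafts, some markers of the other lists were called, where 7.73% of all probes were called in either direction at 7 days and 12.5% at 90 days. Of 30367 probes 640 were higher and 1707 lower with ASCs at 7 days, and 1178 higher and 2613 lower at 90 days. Urothelium markers, 6 of 8 of which were higher with ASCs at 7 days, had r with P2ry2 of -0.31 over the 64 arrays and 0.09 with the group means removed. Nerve and Schwann cell markers, of which 1 of 7 was higher with ASCs at 7 days and 1 of 7 at 90 days, had r = 0.69 with P2rx1 and 0.48 with the group means removed. T cell markers had r = 0.76 and 0.58 with P2ry6, and adipocyte markers 0.84 and 0.53. Neutrophil markers had -0.84 and -0.58 with P2rx1. Of the 5 measured neutrophil markers 1 was lower with ASCs at 7 days. Endothelium markers had 2 of 6 and 1 of 6 lower with ASCs at 7 and 90 days, fibroblast markers 3 of 6 higher at 90 days, T cell and adipocyte markers 1 of 6 and 1 of 7 lower at 90 days, and skeletal muscle markers 0 of 6 at each day.

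By likeness over the 64 arrays, measured as Pearson r among named probes well above background on at least 32 arrays, the receptor genes fell beside different genes. The 3 genes most like P2rx1 were Kiaa0408L, Pcp4l1 and Nrxn2, each with r = 0.96, and 0.90, 0.92 and 0.92 with the group means removed. Those most like Chrm3 were Prkaa2, Spink8 and Fbxl22 (0.94, 0.94 and 0.93, and 0.89, 0.84 and 0.87 with the group means removed), and those most like Chrm2 were Klhl23, Rbpms and Tspan2 (0.92, 0.91 and 0.91, and 0.85, 0.86 and 0.86). P2ry6 was most like Ncf4, a subunit of the phagocyte NADPH oxidase, Tnfrsf1b, a receptor of tumor necrosis factor, and Ifi30, a lysosomal thiol reductase of antigen-presenting cells (0.98, 0.98 and 0.97, and 0.90, 0.90 and 0.89).

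P2rx4 was most like Pax8, Arl11 and Il7r (0.89, 0.89 and 0.88, and 0.86, 0.83 and 0.80 with the group means removed). Adrb3 had Ngb and Emc9 among its most alike genes (0.87 and 0.86), which dropped to 0.70 and 0.72. P2ry2 was most like Pdcd6, Pkm and Man2a1 (0.83, 0.82 and 0.82), at 0.62, 0.60 and 0.57 with the group means removed, and Adra1a like Or1j14, Snapc2 and Zfp644 (0.69, 0.66 and 0.66), at 0.63, 0.48 and 0.32. Adra1a was well above background on 33 of the 64 arrays, so its r includes many values that were not. Likeness was not computed for P2rx7, which was well above background on 14 arrays.

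Among the receptor genes themselves, Chrm3 had r = 0.92 with P2rx1 and 0.88 with Chrm2 over the 64 arrays, and 0.78 and 0.82 with the group means removed. P2ry6 and P2rx4 had r = 0.71 and 0.55. P2ry6 ran against Chrm3 with -0.82 and -0.61 and against P2rx1 with -0.79 and -0.46, while P2ry2, which fell in the same step as P2ry6 and had r = 0.65 with it, was at -0.01 with the group means removed.

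Other genes of the same signaling were read from 3 lists. Of 20 other receptors of these families 3, 0, 3 and 1 were called between grafts in order of follow-up, where 7.73%, 1.67%, 12.5% and 2.44% of all probes were, with a median log2 difference of -0.23, 0.12, -0.81 and -0.02. At 7 days P2ry1, an ADP receptor, was higher with ASCs by 0.89 ± 0.16 (limma adjusted p = 2.71e-05), and Chrm4 and P2ry4 were lower, at -1.04 ± 0.28 and -1.06 ± 0.28, P2ry4 being well above background on 1 of 8 BAM+ASCs arrays and 8 of 8 BAM arrays. At 90 days Adra2b, an α2 receptor, was lower with ASCs, at -1.05 ± 0.15 (limma adjusted p = 2.82e-07), and at 180 days higher, at 0.64 ± 0.15 (limma adjusted p = 0.00424), with 6 or more of 8 arrays above background in each group. Chrm4 and Chrm1 also passed the thresholds at 90 days, but with no BAM+ASCs array and 1 and 0 of 8 BAM arrays well above background, so no difference in level is given.

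Of 19 genes of transmitter synthesis, release and breakdown 3, 0, 3 and 1 were called in order of follow-up, beside the same shares of all probes, with medians of -0.11, 0.21, -0.37 and -0.02. Th, tyrosine hydroxylase of catecholamine synthesis, was lower with ASCs at 7 days by -0.81 ± 0.12 (limma adjusted p = 8.49e-07) and at 90 days by -1.18 ± 0.12 (limma adjusted p = 1.08e-11), on 8 of 8 arrays above background in all 4 groups. At 7 days Bche, butyrylcholinesterase, was higher at 1.21 ± 0.35 and Entpd1, an ectonucleotidase of ATP, lower at -0.73 ± 0.18. Slc18a2, the vesicular monoamine transporter, was higher at 90 days, at 0.63 ± 0.16, and lower at 180 days, at -0.62 ± 0.16, and Slc18a3, the vesicular acetylcholine transporter, was lower at 90 days, at -1.02 ± 0.23, with 2 and 3 of 8 arrays above background.

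Of 27 measured genes of receptor coupling and regulation 3, 1, 3 and 0 were called in order of follow-up, again beside these shares, with medians of -0.12, -0.00, 0.03 and 0.02. Rgs4, which shortens G protein signals, and Plcb1, a phospholipase C of the M3 pathway, were lower with ASCs at 7 days, at -0.89 ± 0.22 and -0.72 ± 0.20, and Itpr3, an inositol trisphosphate receptor, was higher at 0.68 ± 0.17. At 30 days Arrb2, an arrestin that ends receptor signals, was lower at -0.64 ± 0.16 (limma adjusted p = 0.00800). At 90 days Gnai2, Grk5 and Gnas were higher, at 0.86 ± 0.12, 0.72 ± 0.13 and 0.66 ± 0.10. Over the step from 30 to 90 days 8 of 27 rose and 5 fell in BAM, where 35.2% of all probes rose and 9.49% fell, and 8 rose and 3 fell in BAM+ASCs, where 17.8% rose and 10.3% fell.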

How the data were processed

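RNA of 64 reconstructed rat bladder walls was measured on 1-color Agilent arrays, 8 per group. The authors scanned the arrays and deposited intensity values per spot from Agilent Feature Extraction, named in the submitters' processing notes, which subtracts background before giving the processed signal. They also deposited a table of the same processed intensity values by spot, used here only as an alternative. Its values equalled the scanner files' in the median of each array, except that the columns of BAM+ASCs replicates 2 to 4 at 7 days were lower in the median and that of BAM replicate 1 at 180 days was partly empty.

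After leaving out control spots, each array's 75th percentile was subtracted from log2 of the processed signal. The mean over the spots of each probe, without outlier spots, was then used. Detection on an array (well above background) required that share of a probe's spots to be 0.5 or more. Probes were named by RefSeq accession through the GRCr8 gene table. All 64 arrays were fitted in limma 3.58.1 (R 4.3.3) with graft by day groups and Benjamini-Hochberg adjustment over all 30367 probes, and calls needed a fold change over 1.5 with an adjusted p under 0.01 (for the interaction, the adjusted p alone). Intervals are 95% intervals of this fit. The fit was tested on simulated data, and tables and plots were made with Python 3.11.15. The number of arrays limits the precision.

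The members and lists were chosen with earlier results of these data known. All 9 receptor genes are described. Of related lists up to 4 called genes per graft comparison are named, those with the largest differences, and for each receptor gene measured on 32 or more arrays the 3 genes most like it, except that 1 of these for Adrb3 is not reported here. Alternatives were normexp correction with an offset of 50, quantile normalization, the percentile over detected probes, the deposited table, leaving out dim probes, fitting the compared groups only, the replicate number as a block, the two-way analysis of variance without moderation, the mean of the probes of a gene, keeping outlier spots, and leaving out each array. Promoters are RefSeq sequences of GRCr8.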

Additional observations from a re-analysis of the deposited data

Results flagged for a closer look

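Of 72 sets of 8 arrays (9 receptor genes in 8 groups), 8 held an array far from the others by Dixon's criterion at the 95% level, and chance alone gives this in about 1 of 20 sets. Chrm2 was at -0.20 on BAM replicate 5 at 90 days, with the next array at -2.49. P2rx4 was at -2.72 on BAM replicate 2 at 7 days, with the next at -1.71. P2rx7 was at -4.48 on BAM replicate 7 at 7 days, with the next at -6.53, at -2.58 on BAM+ASCs replicate 1 at 30 days, with the next at -4.97, and at -2.79 on BAM replicate 8 at 90 days, with the next at -5.11. The last of these was not well above background. P2ry6 was at -2.0 on BAM+ASCs replicate 3 at 90 days, with the next at -0.56. Adra1a was at -3.36 on BAM+ASCs replicate 1 at 30 days, with the next at -5.01, and at -5.76 on BAM replicate 4 at 180 days, not well above background, with the next at -4.80.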

How the results depend on the processing

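Of 18 called differences, none changed direction under any of the alternatives. Of their 180 values under the settings that kept all arrays 21 no longer passed, and of 288 values with 1 array left out 38. Of 99 uncalled differences 32 changed sign under at least 1 setting, and 1 of these was then called: P2rx7 from 30 to 90 days in BAM, at -0.93 after quantile normalization against 0.23. In BAM+ASCs the same step of P2rx7 was also called after quantile normalization, at -1.12. With the compared groups only, 1 receptor gene was called between grafts at 7 days (Adra1a) and 1 at 30 days (P2ry6), and from 7 to 30 days 1 in BAM (P2rx1, against 4) and 0 in BAM+ASCs (against 1). With normexp correction the counts from 7 to 30 days were 1 and 0, and in BAM+ASCs the count was also 0 after quantile normalization, with the deposited table of processed intensities and with dim probes left out.

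With 1 array left out, the counts ranged from 0 to 1 between grafts at 30 days, from 1 to 4 from 7 to 30 days in BAM (1 without BAM replicate 5 at 7 days or replicate 2 at 30 days), from 0 to 1 from 90 to 180 days in BAM (1 without BAM replicate 5 at 90 days) and from 0 to 1 from 7 to 30 days in BAM+ASCs (0 without BAM+ASCs replicate 1 at 30 days). From 30 to 90 days they ranged from 5 to 7 in BAM and from 4 to 7 in BAM+ASCs. Leaving out BAM replicate 8 at 90 days and BAM+ASCs replicate 7 at 30 days, and the change of the graft difference between days, were looked at after seeing the data. Replicate numbers did not pair the arrays (mean correlation of deviations 0.011 for equal and 0.001 for different numbers). With the replicate block 3 genes were called from 7 to 30 days in BAM, Adrb3 being lost at 1.5, and the other counts were as without it. Signal over background limits P2rx7, Adra1a at 90 and 180 days, and Chrm2 in BAM at 90 and 180 days and in BAM+ASCs at 180 days. Slide and group cannot be told apart.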
